A study of Mus musculus with 6 samples.

Results

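Interferon-stimulated antiviral genes were examined in mouse splenic B cells stimulated through TLR9. The list held 45 gene symbols, picked by name but with earlier results of these data known. Of these, 44 had a row in the deposited values. Ifi27 had none under that symbol, and rows under the names Ifi27l1 and Ifi27l2a, both linked to it in RefSeq, were left out. A gene was described in full when it exceeded -0.76 log2 CPM, which corresponds to about 10 reads, in at least 3 samples. This left 42 of the listed genes among 11233 genes tested, out of 23420 rows. Of the 42, 40 were over that level in all 6 samples and 2 were over it in 5, so 0 passed through 1 group alone. The 2 nearest to the level were Mx1, at -0.89 in unstimulated replicate 1, and Ifi44, at -0.78 in unstimulated replicate 2. Oasl2 fell short in every sample (highest value -1.88), as did Oas1g.

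All cells came from the spleens of wild-type BALB/c mice aged 7 to 11 weeks and were purified with beads, with no gene altered in either group. Cultures of 10 M B cells were kept for 4 hours with CpG ODN 1826, a synthetic DNA agonist of TLR9, at 10 µg/mL, or without it. There were 3 CpG-stimulated and 3 unstimulated samples, of which replicates 1 and 2 of each group were labeled female and replicate 3 male. The labels name 3 mice and do not say which mouse gave which sample, so the p values measure the spread between these samples only.

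Type I interferon binds the receptor chains IFNAR1 and IFNAR2, whose kinases JAK1 and TYK2 phosphorylate STAT proteins. With IRF9 these form a complex that binds the interferon-stimulated response element (ISRE) and switches on genes whose products detect viral nucleic acids, degrade or edit RNA, tag proteins with ISG15 or block viral entry and exit. Many of these promoters are also read by IRF factors without interferon, and TLR9 in B cells signals through MyD88 to NF-κB and IRF factors.

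Promoter sequence was held for 30 of the 42 genes (RefSeq, GRCm38.p6, from 250 bases before to 50 after each annotated start). An ISRE core, searched as GAAANNGAAA on both strands, occurred in 16 of their 40 windows, or 40%, against 3.44% of all 32851 promoter windows in the table. The following stretches of 80 bases are written in the direction of transcription with the matching bases in capitals. They are shown because the same core occurred in the windows of genes that rose with CpG and of genes that fell. In Ifitm3 and Ddx58 the first match began 2 bases after the annotated start, and in the other genes shown it began before the start. Isg15 (chr4:156200846-156200925, minus strand), Ifit1 (chr19:34640759-34640838, plus strand) and Ifitm3 (chr7:141010695-141010774, minus strand) were among the genes most raised, and Oas1c (chr5:120812581-120812660, minus strand), Ifi203 (chr1:173942483-173942562, minus strand) and Ddx58 (chr4:40239779-40239858, minus strand) among those most lowered.
Isg15: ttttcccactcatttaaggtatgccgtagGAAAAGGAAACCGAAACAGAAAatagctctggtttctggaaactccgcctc
Ifit1: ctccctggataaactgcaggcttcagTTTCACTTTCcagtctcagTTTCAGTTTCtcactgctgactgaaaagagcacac
Ifitm3: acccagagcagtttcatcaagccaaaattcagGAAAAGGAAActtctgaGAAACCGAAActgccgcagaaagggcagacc
Oas1c: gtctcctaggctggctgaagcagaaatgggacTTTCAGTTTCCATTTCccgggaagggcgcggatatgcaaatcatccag
Ifi203: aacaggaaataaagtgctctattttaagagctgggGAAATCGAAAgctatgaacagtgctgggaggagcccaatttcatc
Ddx58: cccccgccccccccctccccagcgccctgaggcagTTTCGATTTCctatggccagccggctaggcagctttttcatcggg

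Isg15 held 3 overlapping matches and Oas1c 2, whereas Ddx58 and Ifi203 held 1 each in the windows shown. Of the 15 genes with a match in any window, 8 were raised by CpG, 3 were lowered and 4 were not called, with a median log2FC of 0.57. Among the 15 genes whose windows held no match, 5 were raised, 5 were lowered and 5 were not called, with a median of 0.22. Of all genes tested, 37.6% were raised and 36.7% lowered, with a median of 0.003. The difference between genes with and without a match was not tested. A core of the NF-κB site (GGGANNTNCC, both strands) occurred in 10.0% of the windows of these genes and in 4.01% of all windows. The STAT site TTCNNNGAA, which can overlap an ISRE and reads the same on both strands, occurred in 20% and 8.30%. All 8 genes with the STAT letters had a log2FC above 0, and 5 of them passed the test, while Ifit2, Isg20 and Oas1a did not. The log2FC of Ifit2 fell below 0 without unstimulated replicate 1 (-0.18). Of the 22 genes without these letters, 11 had a log2FC above 0, 8 were raised and 8 were lowered, and among all 11233 genes 5634 had a log2FC above 0. These are matches of letters in short windows, and binding was not measured.

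CpG moved the antiviral genes in both directions. At an FDR under 0.05 (limma, adjusted over all 11233 genes), 20 of the 42 genes were raised by CpG and 10 were lowered, while 12 were not called. Most of the transcriptome moved as well, with 37.6% of all genes tested raised and 36.7% lowered. Past a log2FC of 1, the size the study also set for genes induced by CpG, 13 of the 42 were raised, against 15.8% of all genes. Past -1, 4 were lowered, against 15.3% of all genes. The median log2FC of the 42 genes was 0.39, with quartiles at -0.27 and 1.24, and that of all genes was 0.003, with quartiles at -0.62 and 0.65. Every CpG-stimulated sample exceeded every unstimulated one in 22 of the 42 genes (39.1% of all genes) and fell below every one in 11 (38.6% of all genes). With 3 samples a group an exact permutation test of a single gene cannot go below p = 0.1, so single genes were judged by limma alone.

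**Figure D1:**
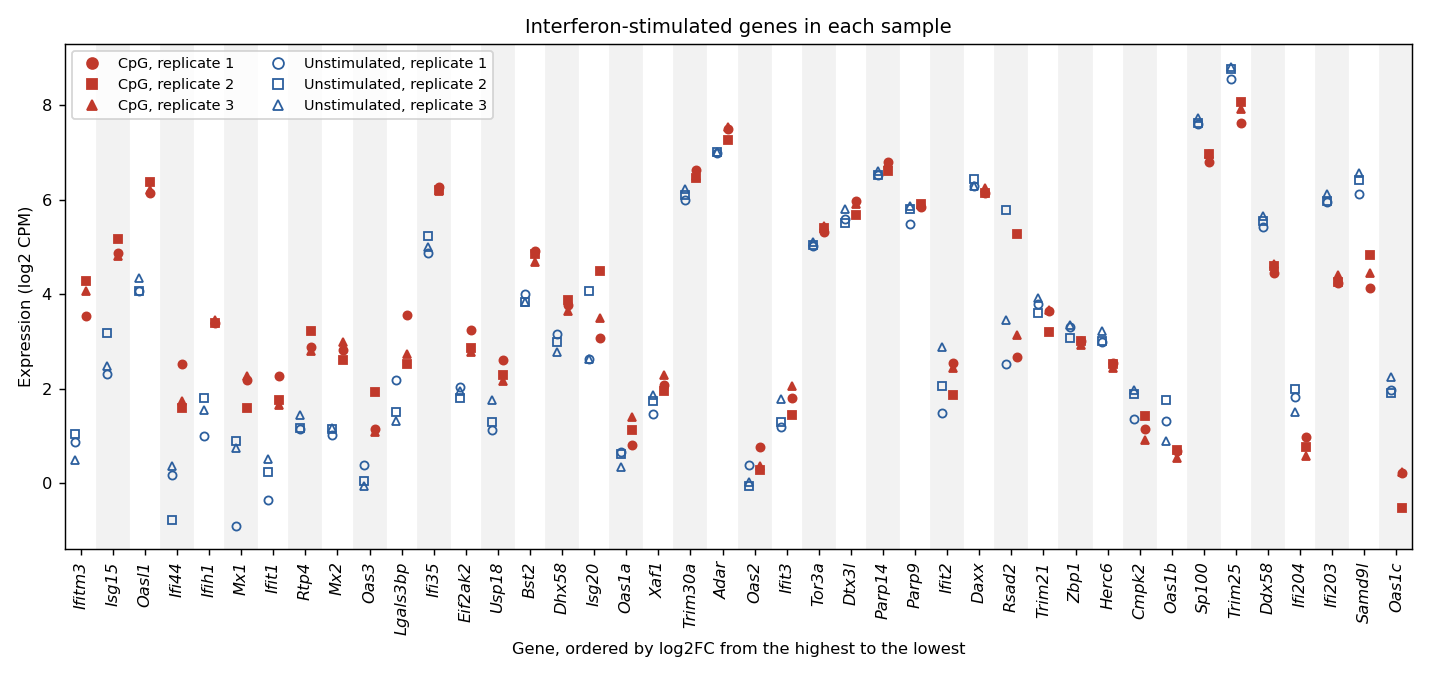
Expression of the 42 antiviral genes in each sample, in log2 CPM on the y axis, with genes ordered by log2FC on the x axis. Filled red symbols are CpG-stimulated samples and open blue symbols unstimulated samples, with 1 symbol shape per replicate number. Groups are apart for genes at either end of the order and mix in the middle, and replicate 2 of both groups stands high for Rsad2 and Isg20.

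The values as deposited had been quantile normalized by the authors, so all samples share nearly 1 distribution and their depth cannot be read from them. A change in total RNA per cell is not visible on this scale, and in bulk samples fewer expressing cells and less RNA per cell cannot be told apart. Levels of different genes are compared below only after division by the exonic length of the gene in GENCODE M21, and all other levels are log2 CPM.

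The counts by role given from here on stand against 37.6% raised and 36.7% lowered among all genes tested, and each role holds few genes. Among proteins that trap viruses or act at membranes, 4 of 4 genes were raised by CpG. Ifitm3, which hinders the fusion of viruses with endosomes, was the most raised of the 42 genes (chr7:141009586-141010770 in GRCm38). It measured 0.88, 1.05 and 0.49 log2 CPM in unstimulated replicates 1 to 3 and 3.54, 4.28 and 4.08 in the CpG-stimulated replicates. All CpG values lay more than 2 units above all unstimulated ones. Its log2FC was 3.16 (95% interval 2.67 to 3.65, limma FDR = 6.11e-07), an 8.95-fold difference.

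Bst2, which tethers budding virus particles to the cell, stood at 3.89 ± 0.09 without and 4.81 ± 0.12 with CpG (log2 CPM, mean ± SD over 3 samples each), and its rise was 0.92 on the log2 scale. Mx1 and Mx2, dynamin-like GTPases that trap viral components, also rose. Mx2 did so evenly, from values between 1.02 and 1.17 to values between 2.6 and 2.99, with a log2FC of 1.69. Mx1 was less even: its unstimulated values were -0.89, 0.90 and 0.75 and its CpG values 2.20, 1.59 and 2.28. The groups did not overlap, and the difference was 1.77 ± 0.44 (log2FC ± SE, limma FDR = 0.00401). The call of the Mx1 log2FC was lost without the filter on low values (limma FDR = 0.0884). Many inbred laboratory mouse strains carry a defective Mx1 allele, which gene-level values do not show. Of the 75-base stretches of Mx2, 2.01% are shared with Mx1, and 1.71% of those of Mx1 with Mx2.

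In the ISG15 system, the modifier and its protease rose while its ligase fell. Isg15 encodes a ubiquitin-like protein that is attached to new proteins during infection (chr4:156199424-156200818). Unstimulated samples gave 2.31, 3.18 and 2.49 log2 CPM, and CpG-stimulated samples 4.86, 5.18 and 4.82. The groups were well apart, with a log2FC of 2.29 (95% interval 1.83 to 2.75, limma FDR = 3.66e-06). Usp18, which removes ISG15 and also restrains the interferon receptor, rose by 0.96 ± 0.21 (log2FC ± SE), with 1.5, 1.0 and 0.39 for replicate numbers 1, 2 and 3. Herc6, the main ISG15 ligase of the mouse, fell by 0.57 on the log2 scale, from 3.07 ± 0.13 to 2.50 ± 0.06 (SD, n = 3). Of its 75-base stretches, 11.3% are shared with other annotated transcripts, chiefly the overlapping model Gm45193.

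Trim25, a ubiquitin ligase that acts on RIG-I and can also attach ISG15, had the highest mean of the 42 genes in log2 CPM and also the highest per kilobase of exon. It fell from 8.55, 8.76 and 8.81 to 7.63, 8.07 and 7.92 log2 CPM. The highest CpG value was below the lowest unstimulated one, and the log2FC was -0.84 (95% interval -1.08 to -0.59, limma FDR = 6.72e-05).

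Among the IFIT genes, whose products bind viral RNA ends, 1 of 3 passed the test. Ifit1 gave -0.35, 0.25 and 0.53 log2 CPM in unstimulated and 2.27, 1.75 and 1.66 in CpG-stimulated samples. There was no overlap between the groups, with a log2FC of 1.75 (standard error 0.28, limma FDR = 2.6e-04). Ifit3 differed by 0.35 ± 0.23 and Ifit2 by 0.14 ± 0.32 (log2FC ± SE), and the values of both groups overlapped for each. For Ifit2 the difference was 1.05 in replicate number 1, -0.19 in number 2 and -0.44 in number 3. Of the 75-base stretches of Ifit3, 41.1% are shared with other transcripts, most often Ifit3b, so its value is uncertain.

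**Figure D2:**
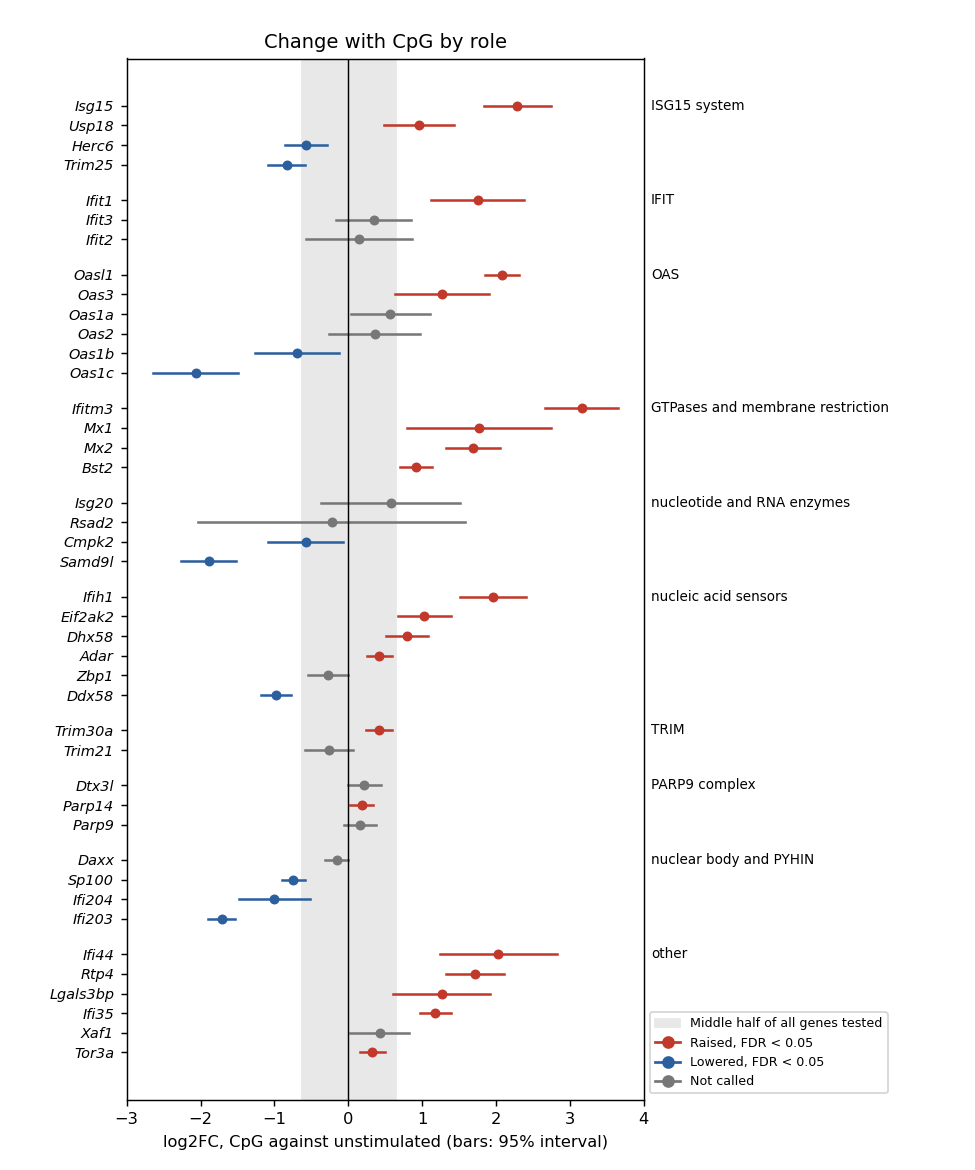
Log2FC of CpG-stimulated against unstimulated cells on the x axis for each of the 42 genes, grouped by role, with 95% intervals from limma. Red marks genes raised, blue genes lowered and gray genes not called at an FDR under 0.05, and the gray band spans -0.62 to 0.65, the quartiles of all genes tested. The group of GTPases and membrane restriction lies to the right of 0, and nuclear body and PYHIN genes to the left.

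The 2'-5' oligoadenylate synthetase (OAS) family, whose active members make a second messenger that activates RNase L, had 6 genes past the filter. Of these 2 were raised, 2 were lowered and 2 were not called, near the shares of all genes (37.6% raised and 36.7% lowered). Oasl1, which lacks that activity and is known in the mouse to limit IRF7 production, showed the clearest rise. Values of 4.07, 4.06 and 4.35 log2 CPM without CpG became 6.13, 6.38 and 6.2 with it. The log2FC was 2.08 (95% interval 1.85 to 2.31, limma FDR = 7.68e-08), with 2.07, 2.32 and 1.85 by replicate number. Oas3, the synthetase most sensitive to long double-stranded RNA, rose from 0.12 ± 0.23 to 1.39 ± 0.47 (SD, n = 3), with a log2FC of 1.27 (limma FDR = 0.00242).

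Oas1c fell most of the 42 genes. It gave 1.98, 1.92 and 2.24 log2 CPM in unstimulated samples and 0.22, -0.51 and 0.24 after CpG. The log2FC was -2.06 (95% interval -2.64 to -1.49, limma FDR = 4.23e-05), a 4.18-fold difference. The model of Oas1c overlaps exons of Gm43069 on the opposite strand over 9.44% of its exonic length. Oas1b was lowered by less, from 1.32, 1.77 and 0.91 to 0.68, 0.70 and 0.53, with a log2FC of -0.69 (limma FDR = 0.0305). Its call was lost in 6 of the alternative fits, among them the one without unstimulated replicate 2 (-0.48, limma FDR = 0.138). Laboratory strains often carry a truncated Oas1b, which these values cannot show.

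Oas1a had a log2FC of 0.57 (limma FDR = 0.0537) and Oas2 one of 0.36 (limma FDR = 0.261), so neither was called. The groups did not overlap for Oas1a. It passed in several alternative fits, among them without CpG replicate 1 (0.73, limma FDR = 0.0283), but not with the block (limma FDR = 0.0744). Of the 75-base stretches of Oas1a, 47.6% are shared with other transcripts, most often Oas1g. Oas1g itself read -5.31, -4.94 and -5.20 in replicates 1, 2 and 3 of both groups alike, at about the level of a gene without reads (-5.2). Oasl2 lay between -5.24 and -3.52 with CpG and between -5.10 and -1.88 without, and was not tested.

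Genomic neighbors within the OAS cluster of chromosome 5 differed in direction. The annotated starts of Oas1b and Oas1c are 121 bases apart on opposite strands, and both genes were lowered. The Oas1c stretch printed above therefore also holds the annotated start of Oas1b. Oas3 starts 34974 bases from Oas1b and was raised. In the other clusters no pair of neighbors was called in opposite directions. Mx1 and Mx2, 72401 bases apart, were both raised, and Ifi203 and Ifi204 were both lowered. Ifit1 was raised and its neighbors Ifit2 and Ifit3 were not called, and Cmpk2 was lowered beside Rsad2, which was not called.

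Sensors of nucleic acids, grouped here with the RNA-editing enzyme gene Adar, gave 4 genes raised and 1 lowered out of 6, against 37.6% and 36.7% of all genes. Ifih1 encodes MDA5, the sensor of long double-stranded RNA (chr2:62595798-62646255). Its values rose from 0.99, 1.82 and 1.55 to 3.39, 3.4 and 3.46 log2 CPM. CpG-stimulated samples were nearly identical (SD 0.04) while unstimulated ones spread more (SD 0.42), and the log2FC was 1.96 (95% interval 1.51 to 2.41, limma FDR = 9.85e-06). Ddx58 encodes RIG-I, the sensor of viral RNA ends (chr4:40203773-40239828). It moved the other way, from 5.42, 5.54 and 5.66 to 4.45, 4.60 and 4.64, without overlap. The log2FC was -0.98 (95% interval -1.18 to -0.78, limma FDR = 4.35e-06), and the differences by replicate number were -0.98, -0.94 and -1.02.

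Dhx58, the third RIG-I-like receptor (LGP2), rose by 0.80, with 2.97 ± 0.19 log2 CPM without and 3.77 ± 0.11 with CpG. Eif2ak2, the kinase PKR that halts translation on double-stranded RNA, rose by 1.03, with 1.93 ± 0.12 without and 2.96 ± 0.25 with CpG (mean ± SD over 3 samples for both genes). Adar, which edits adenosines in double-stranded RNA, had 7.00, 7.02 and 7.02 without and 7.5, 7.26 and 7.53 with CpG, a small rise of 0.42 ± 0.08 (log2FC ± SE). The model of Adar overlaps exons of Chrnb2 on the opposite strand over 16.8% of its exonic length, and whether counting used the strand is not given in the sources used here. Zbp1, a sensor of Z-form nucleic acids, differed by -0.27 (limma FDR = 0.0632) and was not called, although the groups did not overlap.

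**Figure D3:**
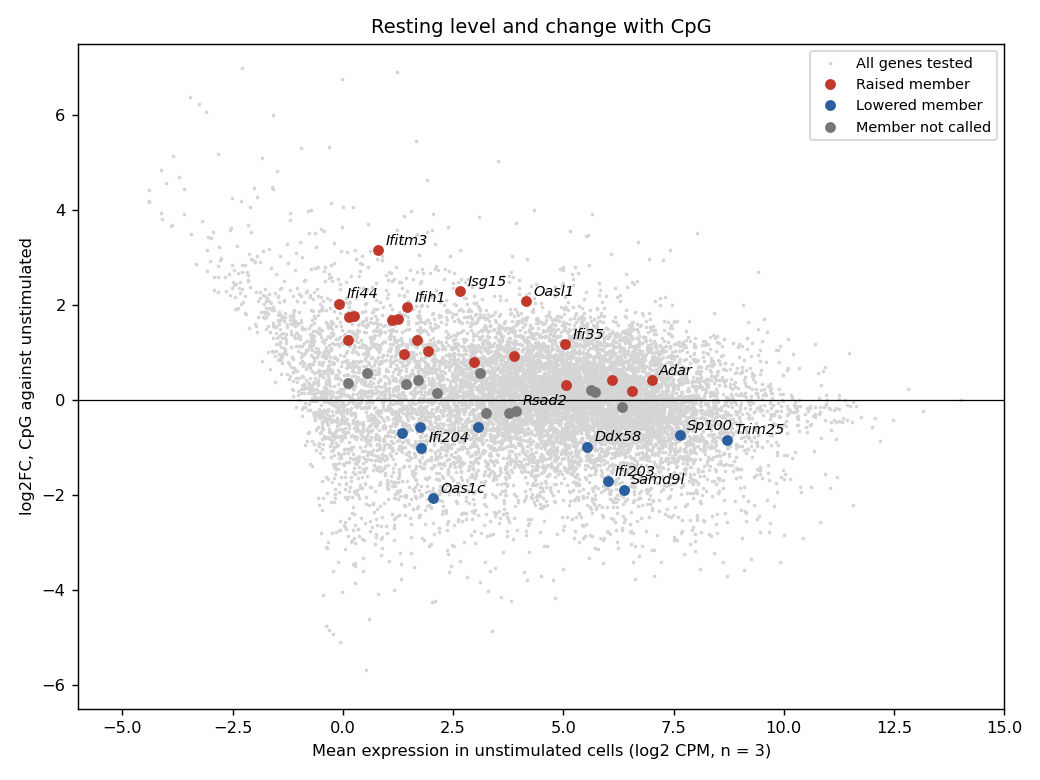
Mean expression in unstimulated cells (log2 CPM, n = 3) on the x axis and log2FC with CpG on the y axis. Small gray points are all 11233 genes tested, and large points are the 42 antiviral genes, red when raised, blue when lowered and gray when not called. Of the 21 genes at or below their own median level in unstimulated cells, 12 were raised and 4 lowered, and of the 21 above it 8 were raised and 6 lowered. The level used for this split is also subtracted in the log2FC, so level and change are not independent. All genes were not counted by level, and these counts are descriptions.

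None of the 4 nuclear body and PYHIN genes was raised. Ifi203, a PYHIN protein of the nucleus, fell from 5.95, 5.97 and 6.12 to 4.23, 4.27 and 4.40 log2 CPM. Its difference was nearly the same in each replicate number (-1.72, -1.70 and -1.72), with a log2FC of -1.71 (limma FDR = 6.91e-08). Ifi204, a DNA-binding PYHIN protein, fell from 1.83, 1.99 and 1.51 to 0.99, 0.76 and 0.58, a log2FC of -1.0 (limma FDR = 0.00172). Of its 75-base stretches, 13.2% are shared with other transcripts, most often Ifi211.

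Sp100, a scaffold of nuclear bodies, declined from 7.60, 7.63 and 7.72 to 6.80, 6.96 and 6.96, a log2FC of -0.74 (limma FDR = 4.41e-06). Daxx, a histone chaperone of the same bodies, had values of 6.30, 6.43 and 6.28 without and 6.15, 6.14 and 6.26 with CpG. It was not called (log2FC -0.15, limma FDR = 0.0675) and passed with the replicate number as a block (limma FDR = 0.0423).

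Enzymes of nucleotides and RNA, with Adar counted among the sensors instead, held 2 lowered and 0 raised genes out of 4. Samd9l, which restricts poxviruses and slows cell growth, fell from 6.13, 6.41 and 6.57 to 4.14, 4.84 and 4.45 log2 CPM. The gap between the groups was more than 1 unit, and the log2FC was -1.89 (95% interval -2.26 to -1.52, limma FDR = 3.35e-06). Cmpk2, a mitochondrial nucleotide kinase, fell by 0.57 on the log2 scale (limma FDR = 0.0424), but its groups overlapped and the call was lost in 6 of the alternative fits, for example without CpG replicate 3 (-0.45, limma FDR = 0.135).

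Rsad2 and Isg20 differed more between replicate numbers than between treatments. Rsad2 encodes viperin, which makes a chain-terminating nucleotide. It gave 2.53, 5.78 and 3.46 in unstimulated and 2.67, 5.27 and 3.15 log2 CPM in CpG-stimulated replicates 1, 2 and 3, with a log2FC of -0.23 ± 0.81 (SE, limma FDR = 0.812; 0.114 with the replicate block). Isg20, an RNA exonuclease, gave 2.63, 4.08 and 2.64 without and 3.08, 4.49 and 3.50 with CpG. The log2FC of 0.58 was not called (limma FDR = 0.238), and it passed with the replicate number as a block (limma FDR = 9.21e-04). CpG was higher in 3 of 3 numbers.

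Replicate 2 of both groups also stood apart in red blood cell transcripts. The 4 erythroid markers summed to 382, 4902 and 610 CPM in CpG-stimulated and 403, 3833 and 495 CPM in unstimulated replicates 1 to 3, with Hba-a1 at the level of no reads in all samples. Alas2, which makes heme, was higher in replicate 2 than in the mean of the other 2 by 2.98 with CpG and 3.24 without, and Rsad2 by 2.36 and 2.79. The deposited values also carry a shift by replicate number that both groups share: in 1481 rows the 2 samples of each number have identical values that differ between the numbers, as in Oas1g. The part of either in the Rsad2 and Isg20 values was not tested. Without both samples numbered 2, a fit chosen after the data were seen, 22 of the 42 genes were raised and 9 lowered.

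**Figure D4:**
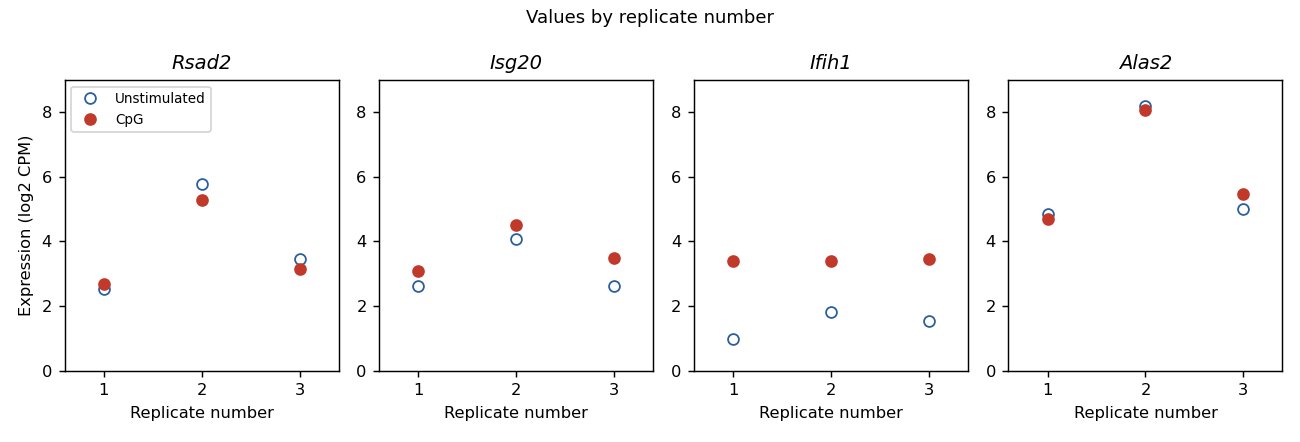
Expression in log2 CPM on the y axis against the replicate number of the labels on the x axis for Rsad2, Isg20, Ifih1 and the erythroid marker Alas2. Open blue circles are unstimulated and filled red circles CpG-stimulated samples, 1 per number. Rsad2, Isg20 and Alas2 peak in replicate 2 of both groups, while Ifih1 is separated by treatment at each number.

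Of the ADP-ribosylation genes, 1 of 3 passed the test. Parp14, Parp9 and Dtx3l, whose products modify proteins by ADP-ribose and ubiquitin and aid the interferon response, had log2FC values of 0.18, 0.16 and 0.22. Parp14 passed the test (limma FDR = 0.0334) and lost its call in 6 alternative fits, among them without CpG replicate 1 (0.15, limma FDR = 0.101). Dtx3l, whose start lies 681 bases from that of Parp9 on the opposite strand, had values of 5.60, 5.51 and 5.80 without and 5.96, 5.68 and 5.91 with CpG. It was not called (limma FDR = 0.0717) and passed with the block (limma FDR = 0.0104). Exons of Parp9 and Dtx3l overlap on opposite strands, over 9.4% of the exonic length of Parp9 and 8.0% of that of Dtx3l.

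Trim30a, which limits NF-κB signaling, rose by 0.42 on the log2 scale, with 6.11 ± 0.12 without and 6.53 ± 0.08 with CpG. Trim21, a cytosolic antibody receptor with ubiquitin ligase activity, measured 3.80, 3.61 and 3.91 without and 3.66, 3.21 and 3.67 with CpG. Its log2FC of -0.26 was not called (limma FDR = 0.126), and with the block it was (limma FDR = 0.0384).

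Of the 6 remaining genes, 5 were raised, against 37.6% of all genes, and Xaf1 was not called. Ifi44 gave 0.17, -0.78 and 0.37 log2 CPM without and 2.52, 1.60 and 1.74 with CpG, a log2FC of 2.03 (limma FDR = 4.48e-04). Rtp4, a chaperone of membrane receptors, rose from 1.14, 1.17 and 1.44 to 2.89, 3.23 and 2.79, a log2FC of 1.72 (limma FDR = 9.11e-06). Both genes were separated by treatment in all samples.

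Lgals3bp, a secreted galectin-binding glycoprotein, rose by 1.26 ± 0.30, Ifi35 by 1.18 ± 0.09 and the torsin ATPase Tor3a by 0.33 ± 0.07 (log2FC ± SE). The call of the Lgals3bp log2FC was lost without the filter on low values (limma FDR = 0.0746). The model of Ifi35 overlaps exons of Gm11626 on the opposite strand over 16.8% of its exonic length. Xaf1, a binding partner of the apoptosis inhibitor XIAP, had 1.47, 1.75 and 1.86 without and 2.09, 1.96 and 2.30 with CpG. Its log2FC was 0.42 with a limma FDR of 0.0516, and 0.0493 with the block.

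Per kilobase of exon, the order of the antiviral transcripts differed between the groups. Trim25 was first of the 42 genes in unstimulated cells (6.18 log2 CPM per kb), followed by Sp100 (4.73), Daxx (4.68) and Ifi35 (4.25). With CpG, Ifi35 (5.43), Isg15 (5.36) and Trim25 (5.35) stood within 0.1 of one another, closer than the replicate SD of Isg15 and Trim25. Isg15 thereby moved from rank 14 to rank 2, Oasl1 from 15 to 5 and Ifitm3 from 21 to 6, while Samd9l moved from 8 to 17 and Ifi203 from 11 to 22. The summed level of the 20 raised genes was 414.5 to 439.5 CPM without and 696.2 to 732.1 CPM with CpG. The 10 lowered genes summed to 763.0 to 897.6 CPM without and 379.5 to 477.8 CPM with CpG. These sums follow from how the genes were called and are descriptions.

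Signaling genes around the antiviral program were examined as a separate list. Of 44 listed genes of the interferon and nucleic acid sensing pathways, 28 passed the filter, and of these 11 were raised, 12 were lowered and 5 were not called, shares near the 37.6% raised and 36.7% lowered among all genes. None of the 15 interferon ligand genes passed. All 11 Ifna genes were at or under the level of 3 reads (-2.34) in every sample. Ifnb1, the type I interferon that TLR signaling often induces first, gave -4.05, -3.29 and -5.04 log2 CPM without and -3.96, -1.63 and -0.81 with CpG, so only CpG replicates 2 and 3 exceeded 3 reads and no test was made. Ifng lay between -2.96 and -0.34 without and between -4.53 and -2.17 with CpG.

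Receptor and signal transducer genes were mostly lowered. Ifnar1 fell from 8.22, 8.28 and 8.37 to 7.20, 7.53 and 7.20 log2 CPM, a log2FC of -0.98 (limma FDR = 4.94e-06). Stat2 fell from 5.27, 5.33 and 5.71 to 4.56, 4.25 and 4.47, a log2FC of -1.01 (limma FDR = 4.36e-05). Tyk2 (-0.88), Jak2 (-0.82) and Ifngr2 (-0.91) were lowered without overlap between the groups. Jak1 (-0.17) and Ifngr1 (-0.24) passed by small margins, as did Ifnar2 (0.17) and Irf9 (0.19) in the other direction, and all 4 lost their call in several alternative fits.

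Among the transcription factors, Irf8 rose (log2FC 1.65) and Irf2, which can repress ISRE promoters, fell (-1.5). Irf7, the factor that amplifies interferon genes, had 4.55, 4.86 and 4.62 log2 CPM without and 4.16, 4.75 and 4.33 with CpG. It was not called (log2FC -0.26, limma FDR = 0.136) and passed with the replicate block (limma FDR = 0.0138) and without CpG replicate 2 (-0.43, limma FDR = 0.00555). Irf1 likewise passed with the block (-0.18, limma FDR = 0.0510 without and 0.0198 with it). Irf3 (-0.07) and Irf5 (-0.01) were not called.

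Feedback inhibitors and some sensors rose. Socs3, a brake on JAK kinases, rose by 2.73, with 5.0 ± 0.47 log2 CPM without and 7.73 ± 0.12 with CpG, and Socs1 rose by 1.72, while the phosphatase gene Ptpn6 was not called (0.07). Ikbke, a kinase related to TBK1 that phosphorylates IRF factors, had the largest log2FC of the pathway list (3.29, standard error 0.16), whereas Tbk1 itself fell by 0.53 on the log2 scale. In DNA sensing, the gene for the sensor cGAS (Mb21d1) rose by 2.53 and that for its adaptor STING (Tmem173) fell by 1.86 on the log2 scale. Mavs, the adaptor of RIG-I and MDA5, fell by 0.71 on the log2 scale. Tlr7 (1.86), Tlr9 (1.07), Myd88 (0.59) and Unc93b1 (0.33) were raised, and Tlr3 did not pass the filter. The call of the Unc93b1 log2FC was lost without the filter on low values (limma FDR = 0.0518).

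**Figure D5:**
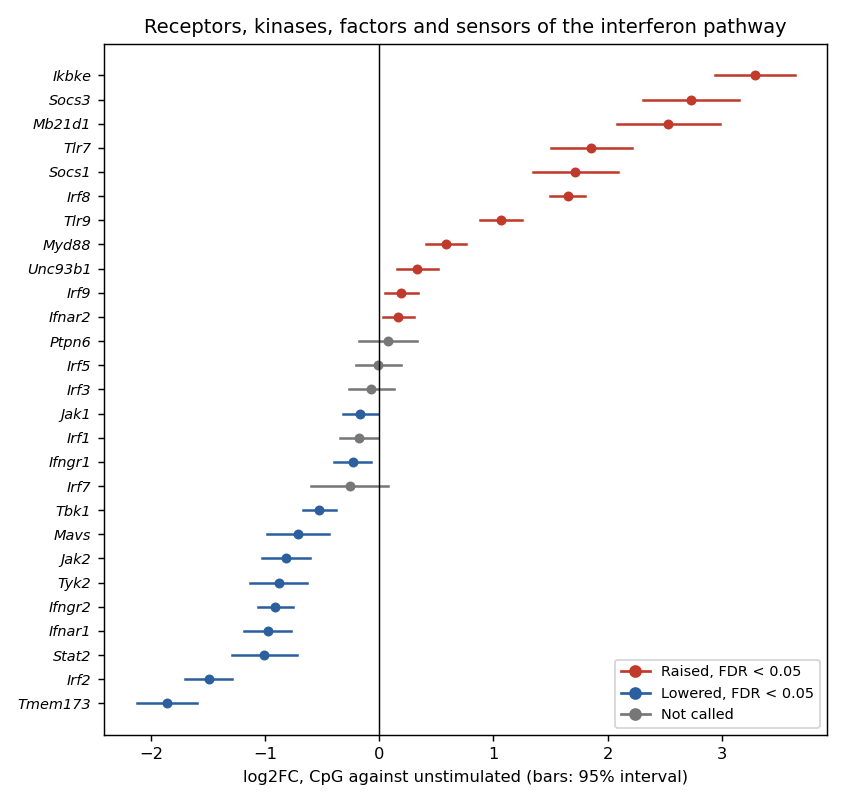
Log2FC of CpG-stimulated against unstimulated cells on the x axis for genes of the pathway list past the filter, ordered by size, with 95% intervals from limma. Red, blue and gray mark raised, lowered and not called genes at an FDR under 0.05. Ikbke, Socs3 and Mb21d1 lie farthest to the right, and Tmem173, Irf2 and Stat2 farthest to the left.

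The cells carried B cell markers throughout, with 8 of 8 markers past 10 reads and summed levels of 2948 to 3366 CPM with and 3950 to 4575 CPM without CpG. Of 6 myeloid markers 4 exceeded 10 reads on average, and their sum was 10.0 to 15.6 CPM with and 7.35 to 14.4 CPM without CpG. The ranges overlapped, but the sum was higher with CpG within each of the 3 replicate numbers. Of the single markers only Adgre1 (listed as Emr1) was higher in each. Cd14, Csf1r, Lyz2 and S100a8 were lower with CpG in each, and Itgam differed in direction between numbers. Plasmacytoid dendritic cells, which make much interferon in response to CpG, had 1 of 4 markers past 10 reads (Ccr9) and sums of 0.933 to 1.31 CPM with and 1.54 to 2.45 CPM without CpG, with Cox6a2 under 3 reads in all samples. For T cells 0 of 7 markers reached 10 reads (0.50 to 0.632 CPM with and 0.407 to 0.604 CPM without CpG, Trac without a row). The 4 NK cell markers summed to 0.727 to 1.36 CPM with and 0.126 to 0.160 CPM without CpG, through Klrb1c alone, as Ncr1, Nkg7 and Klrk1 were under 3 reads. The part of these cells in the antiviral gene values was not tested.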

How the data were processed

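Bead-purified B cells of 6 cultures were profiled by mRNA sequencing. STAR 2.6.1a was used by the authors for alignment (mm10) and featureCounts (Subread 2.0.1) for counting, after which counts were quantile normalized and the voom values in log2 CPM were deposited. FastQC 0.11.7 and Trim Galore 0.6.5 are also named in the submitters' processing notes. Raw counts were not used here. The most frequent value, about -5.2, was read as 0.5 reads, which gives a common library of 17.8 M reads, 10 reads at -0.76 and 3 reads at -2.34.

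The R package limma 3.58.1 (R 4.3.3, moderated by eBayes with a variance trend) was applied to the groups across all genes over 10 reads in at least 3 samples, two-sided, with Benjamini-Hochberg adjustment (FDR). The procedure was tested on simulated data in which few genes changed and samples varied independently. In the real data most genes were called and same-numbered samples deviated together, so the simulation does not cover these features. Deviations from group means correlated at 0.435, 0.224 and 0.300 within replicate numbers and at -0.281 to 0.0279 between them. The shared shift, and the sex that differs between some numbers, can also give this. The main fit did not pair the samples by number, and its calls and FDR values are those printed unless another fit is named. A fit with the number as a block was made as an alternative, and its values are printed where they change a call.

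The genes, lists and tests were chosen with earlier results of these data known. Among the antiviral genes, sample values are given for the 8 most raised and 8 most lowered, the 3 highest means, and those whose call changed with the block; others shown were added after their values were seen. Role groups, the pathway list and markers were set with them, and Adgre1 was matched as Emr1. Shared sequence was counted as stretches of 75 bases in GENCODE M21 transcripts. Alternatives covered filters, scale, trend, scaling, the block and omitted samples. The values of 1 gene of the pathway list, which is included in that list's counts, are not reported here.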

Additional observations from a re-analysis of the deposited data

How the results depend on the processing

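Over the alternatives, 17 to 23 antiviral genes were raised and 8 to 12 lowered, and the median log2FC stayed between 0.32 and 0.46. Testing against a log2FC of 1 with limma's treat left 7 of the 13 genes raised past that size; it asks for more evidence by construction. The replicate block gave 23 raised and 12 lowered genes with 5 calls gained and 0 lost, and in the pathway list 11 raised and 14 lowered. Of 1045 values of 70 single genes, 968 kept direction and call, 39 in 10 genes lost it, 30 in 10 genes gained it and 8 in 5 genes changed sign, the cause of which was not tested. Sign changes came when samples were left out, in genes that were not called: Rsad2 ranged from -1.01 to 0.70, Ifit2 from -0.18 to 0.51, Irf3 from -0.15 to 0.003, Irf5 from -0.11 to 0.082 and the Ptpn6 log2FC from -0.015 to 0.21, with -0.083 without both samples numbered 2. Rescaling moved the median of all genes by under 0.1. Quantile normalization hides depth per sample, and 3 samples a group limit small changes of low genes.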
